A study of Saccharomyces cerevisiae with 35 samples.

Results

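Meiotic unannotated transcripts (MUTs) were followed through whole colonies of the yeast strain F45 and its derivatives. MUTs are transcripts that do not code for known proteins and were first catalogued in yeast cells going through meiosis. The count tables hold 977 rows with a MUT identifier among 12131 features, and a MUT was kept when it reached at least 1 CPM (counts scaled to a library of 1000000 counts) in at least 3 libraries of a sequencing batch. By this rule 236 MUTs (24.2%) were kept, 200 in the first batch, 183 in the second and 147 in both, and the other 741 were not analysed further.

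RNA was taken from colonies grown for 4 d on rich solid medium, with several colonies pooled per library, and each of 9 groups had 4 libraries except F45 of the second batch, which had 3. The first batch held 24 libraries of 6 groups: a disome with an extra copy of chromosome XV, a hemizygous strain (the chromosome XVI disome with dig1Δ::kanMX4 replacing DIG1 on 1 of its 2 copies), the chromosome XVI disome itself, euploid F45 carrying DIG1 on a plasmid (DIG1 overexpression), euploid F45 carrying the empty plasmid, and euploid F45. The DIG1 plasmid is listed as pAB340 (DIG1-pFA6a-KanMX4) and the empty plasmid as pRS41K, so the control is not listed as the same vector without DIG1. The second batch held 11 libraries of cis3Δ, flo11Δ and euploid F45, and the table headers name 2 strains for each deletion with 2 libraries apiece. Both deletions are kanMX4 replacements. All of these strains are MATa derivatives of the haploid F45 with ho∆0::hphMX6, an SPS2:EGFP:natMX4 reporter and a serine auxotrophy, so the controls carry these alleles as well, and the extra chromosomes of the disomes are homozygous copies that arose by missegregation in mitosis. Dig1 represses the transcription factor Ste12, FLO11 encodes the cell surface adhesin of fluffy colonies, and CIS3 encodes a cell wall protein. F45 colonies are fluffy, those of the disomes and of the DIG1 overexpression strain are smooth, the hemizygous colonies are partly fluffy, and both deletions lose the fluffy structure.

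Most of the yeast genome is transcribed at some level, and much of the output that does not code for protein is removed as soon as it is made. In the nucleus the Nrd1-Nab3-Sen1 complex ends such transcripts early, the TRAMP complex adds a short tail and the exosome with its exonuclease Rrp6 degrades them. MUTs lie beside protein-coding genes, between them or on the strand opposite to them, and many were found to accumulate when Rrp6 protein declines in meiosis. Early meiotic genes are held off in dividing cells by Ume6, which binds the URS1 element, and middle meiotic genes are switched on by Ndt80, which binds the middle sporulation element (MSE). Ste12, the target of Dig1, binds the pheromone response element.

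The sequences below are the 300 bases around the start of 5 MUTs on which the results turned, 250 bases before the annotated start and 50 after it, read 5′ to 3′ on the strand of the MUT from the S288c reference genome R64 (RefSeq). They are reference sequence and not that of F45. MUT392.1 (plus strand, window chrIV:1022332-1022631) and MUT1143.1 (plus strand, window chrXIII:23335-23634) had the lowest levels relative to F45. MUT84.3 (minus strand, window chrII:417730-418029) and MUT1554.1 (plus strand, window chrXVI:591593-591892) had higher levels in the disomes, and MUT1416.1 (plus strand, window chrXV:509792-510091) was higher in flo11Δ. Capitals mark a match to the MSE and, in MUT392.1, also the Pho4 site CACGTG.

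MUT392.1: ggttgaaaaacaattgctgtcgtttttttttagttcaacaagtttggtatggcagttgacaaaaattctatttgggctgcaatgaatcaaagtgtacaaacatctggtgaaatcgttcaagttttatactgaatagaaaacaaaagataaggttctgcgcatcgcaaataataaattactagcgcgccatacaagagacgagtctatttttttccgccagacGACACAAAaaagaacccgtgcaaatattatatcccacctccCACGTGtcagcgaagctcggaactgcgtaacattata
MUT1143.1: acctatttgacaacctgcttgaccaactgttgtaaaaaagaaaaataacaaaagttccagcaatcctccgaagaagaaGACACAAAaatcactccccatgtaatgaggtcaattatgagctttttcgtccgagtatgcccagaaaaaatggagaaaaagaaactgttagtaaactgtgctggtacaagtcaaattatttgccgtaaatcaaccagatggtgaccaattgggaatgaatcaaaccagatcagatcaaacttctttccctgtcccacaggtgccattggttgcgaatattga
MUT84.3: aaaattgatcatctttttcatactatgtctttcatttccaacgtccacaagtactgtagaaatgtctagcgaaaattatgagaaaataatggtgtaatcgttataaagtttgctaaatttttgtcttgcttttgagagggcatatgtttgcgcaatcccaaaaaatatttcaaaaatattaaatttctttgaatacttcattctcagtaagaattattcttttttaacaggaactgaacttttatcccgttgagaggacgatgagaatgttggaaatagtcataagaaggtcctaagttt
MUT1554.1: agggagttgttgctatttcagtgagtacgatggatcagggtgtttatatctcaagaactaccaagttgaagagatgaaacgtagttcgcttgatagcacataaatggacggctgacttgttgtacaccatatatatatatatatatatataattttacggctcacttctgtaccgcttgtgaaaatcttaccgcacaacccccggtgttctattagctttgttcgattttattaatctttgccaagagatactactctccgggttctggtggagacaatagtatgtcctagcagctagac
MUT1416.1: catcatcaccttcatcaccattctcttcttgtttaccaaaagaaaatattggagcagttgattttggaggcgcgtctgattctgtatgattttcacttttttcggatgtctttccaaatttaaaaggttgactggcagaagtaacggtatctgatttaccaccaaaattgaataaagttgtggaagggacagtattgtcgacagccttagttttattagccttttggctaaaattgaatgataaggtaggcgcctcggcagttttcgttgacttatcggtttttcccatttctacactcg

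Motifs were searched on both strands as exact letters: the URS1 core TAGCCGCC, the MSE GNCACAAA, the Ste12 element TGAAACA, none of which contains another, and CACGTG, which was added after the values of the MUTs had been seen. An MSE match was in 20 of the 236 start windows (8.47%), against 71 of 740 windows (9.59%) of the MUTs that were not kept and 273 of 6574 windows (4.15%) of the same length at ORF starts. The URS1 core was in 6 MUT windows (2.54%), against 2.97% of the MUTs that were not kept and 1.10% of ORFs, and the Ste12 element was in 27 (11.4%), against 8.65% and 7.13%. CACGTG was in 2 of the 236 windows (0.847%), against 19 of 976 windows (1.95%) of all MUTs with a position. In MUT392.1 the MSE match began 28 bases before the start and the CACGTG 13 bases after it, and in MUT1143.1 the MSE match began 172 bases before the start. The windows of MUT84.3, MUT1554.1 and MUT1416.1 held none of these 4 motifs. A match is a stretch of letters and not a measured binding site.

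Total counts were 6503076 to 37823857 per library in the first batch and 11565108 to 25104790 in the second, so that the 3 counts taken as the floor of a single library equalled 0.0942 to 0.533 CPM and 0.107 to 0.286 CPM. Kept MUTs took 0.0421 to 0.0673% of all counts in the first batch and 0.0598 to 0.0770% in the second. The third F45 library of the second batch stood apart: its mitochondrial features summed to 80.0 CPM, against 0.953 to 2.89 CPM in the other libraries of that batch, and the MUTs that were not kept summed to 390 CPM, against 105 to 134 CPM. The counts of called MUTs, the sums, the positions, the named MUTs and the correlations with neighbouring ORFs are therefore given with and without it for flo11Δ, and the counts and sums for cis3Δ. The sums, positions and correlations without it were added after the data were seen. The targeted genes followed their labels: DIG1 averaged 60.2 ± 4.7 CPM in the hemizygous strain and 137 ± 11 CPM in the chromosome XVI disome (SD, n = 4 each). DIG1 averaged 304 ± 11 CPM in the overexpression strain and 71.2 ± 2.6 CPM with the empty plasmid. In flo11Δ, FLO11 averaged 4.62 ± 1.3 CPM against 19102 ± 1111 CPM in F45, and in cis3Δ, CIS3 averaged 0.276 ± 0.082 CPM against 769 ± 54 CPM in F45. The kit selects polyadenylated RNA, so transcripts without a tail are under-represented, and in whole colonies fewer cells that make a transcript and less of it per cell cannot be told apart.

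By position, 113 of the 236 MUTs lay between ORFs, 92 were antisense (on the strand opposite to an ORF, covering at least 50% of the MUT or of the ORF), 30 overlapped an ORF in another way and 1 lay on the strand of an ORF. Counting any overlap of 1 base, 122 were opposite to an ORF. The kept MUTs had a median length of 481 bases (65 to 2641), against 225 bases (51 to 2145) for those not kept. All bases of 220 kept MUTs were free of other features on the same strand, while 4 had fewer than 100 such bases, and all 22 MUTs with none had 0 counts. The rule is a threshold on level: 14 MUTs of the first batch and 20 of the second passed with exactly 3 libraries, and 19 and 21 stopped at 2. Of the 200 MUTs of the first batch, 102 reached 1 CPM in all 6 groups and 6 passed through 1 group only. In the second batch these numbers were 140 and 2 of 183. A MUT below 1 CPM throughout a group was kept through other groups, so its difference from those groups is in part set by the rule.

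In F45 of the first batch the 200 MUTs had a median of 1.90 CPM (quartiles 1.12 to 3.31, range 0.0568 to 87.3), 13 averaged at least 10 CPM and 37 less than 1 CPM. Per kilobase of their own unshared length, MUTs had a median of 4.39 CPM (n = 197), against 45.9 CPM per kilobase for ORFs (n = 5898). Antisense MUTs had a median of 3.25 CPM per kilobase and those between ORFs 6.41. The levels were uneven, with the top 8 MUTs holding 29.5% of the sum. The most abundant was MUT511.2 (chrVI:112317-113653, minus strand), which covers 79.8% of HXT10, a hexose transporter gene, on the opposite strand. Its level was 70.6, 88.0, 90.4 and 100 CPM in the 4 F45 libraries, whereas HXT10 itself averaged 6.16 ± 0.68 CPM. Over 81 antisense pairs, the level of the MUT per kilobase was a median of 7.56% of that of its ORF (quartiles 1.87 to 23.8%). In 10 pairs the MUT was the higher of the pair, led by MUT511.2 at 1739% of HXT10, MUT1489.1 at 1510% of ECM23, MUT541.3 at 287% of YFL019C and MUT1317.2 at 260% of DFG16, and in 12 pairs it was below 1%.

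The summed level of the MUTs in the first batch averaged 697 ± 36.7 CPM in the chromosome XV disome, 747 ± 37.4 CPM in the hemizygous strain, 672 ± 23.4 CPM in the chromosome XVI disome, 537 ± 45.1 CPM with DIG1 overexpression, 678 ± 12.3 CPM with the empty plasmid and 737 ± 48.3 CPM in F45 (SD, n = 4 each). DIG1 overexpression was the lowest group, with a sum 0.792 times that of the empty plasmid and no overlap between their libraries (exact two-sided permutation test, p = 0.0286, the smallest that 4 against 4 allows, adjusted p = 0.0771 over 27 such tests). The chromosome XVI disome stood at 0.912 times F45, the empty plasmid at 0.919 times F45 and the hemizygous strain at 1.11 times the chromosome XVI disome, each with the same p and adjusted p, and the chromosome XV disome at 0.945 times F45 (exact permutation p = 0.286). In the second batch the sums were 710 ± 53.5 CPM in cis3Δ (n = 4), 689 ± 20.4 CPM in flo11Δ (n = 4) and 695 ± 74.6 CPM in F45 (n = 3), and neither deletion differed beyond the spread of the libraries (exact permutation p = 0.629 and p = 1). Without the third F45 library the ratios to F45 were 1.05 and 1.02 (exact permutation p = 0.533 and p = 0.667). A sum is dominated by the few high MUTs, and the median MUT showed more: 1.46 CPM in the chromosome XV disome and 1.51 CPM in the chromosome XVI disome, against 1.92 CPM in F45, and 1.36 CPM with DIG1 overexpression against 1.77 CPM with the empty plasmid (each exact permutation p = 0.0286, adjusted p = 0.0771). These sums and medians are not adjusted for copy number, so in the disomes and the hemizygous strain they include MUTs on a doubled chromosome.

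**Figure D1:**
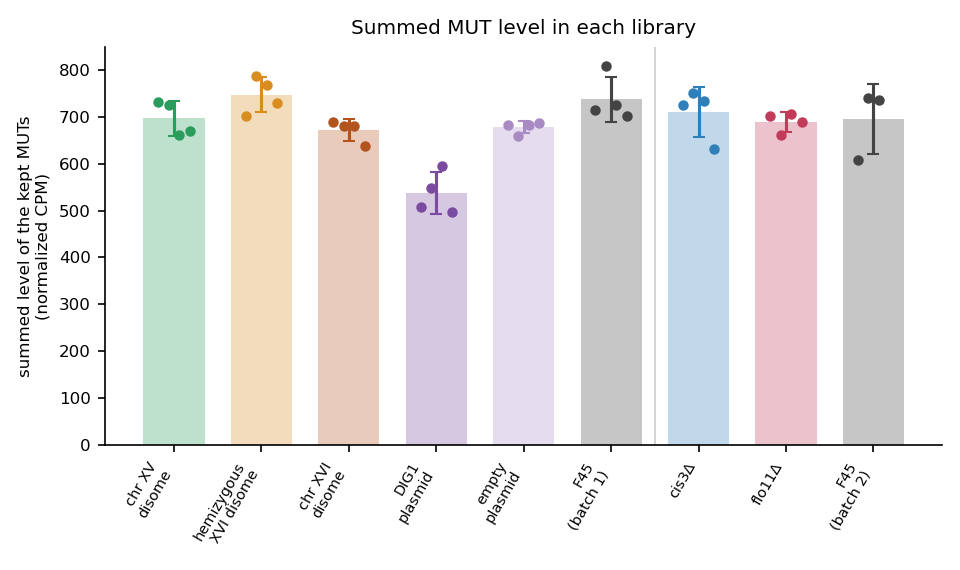
Summed level of the kept MUTs in each library, in normalized CPM, by group, with the first batch and the second batch side by side; points are libraries and bars the mean and SD. DIG1 overexpression (537 ± 45.1 CPM) lies below the empty plasmid (678 ± 12.3 CPM), and the groups of the second batch overlap.

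Changes of single MUTs were tested across all features of a batch with edgeR's quasi-likelihood test, with the doubled copy number of a disomic chromosome taken into account, and a MUT was called at an adjusted p below 0.01. In the chromosome XV disome 14 of 200 MUTs were higher and 74 were lower than in F45, whereas 23.6% of all 7928 features were called higher and 28.8% lower. In the chromosome XVI disome 13 were higher and 69 lower than in F45, against 22.1% and 24.9% of all features. As shares of the MUTs, 7% and 6.5% were called higher in the 2 disomes and 37% and 34.5% lower. The median log2 fold change of the MUTs was -0.53 in the chromosome XV disome and -0.36 in the chromosome XVI disome, against -0.05 and -0.02 over all features. More than 2-fold decreases were called for 50 and 51 MUTs and more than 2-fold increases for 8 and 9. Among the 5898 ORFs there were 343 and 334 such decreases and 146 and 66 such increases, so decreases were the more frequent there too. Other classes of noncoding rows differed in the chromosome XV disome. Stable unannotated transcripts (SUTs) had 19 higher and 100 lower of 263, with a median of -0.52. Xrn1-sensitive transcripts (XUTs) had 66 higher and 216 lower of 842, with a median of -0.24. Rows with ST identifiers had 105 higher and 136 lower of 694, with a median of -0.015. ORFs had 1660 higher and 1739 lower of 5898. MUTs are counted far more shallowly than ORFs, which limits how many can be called in either direction.

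**Figure D2:**
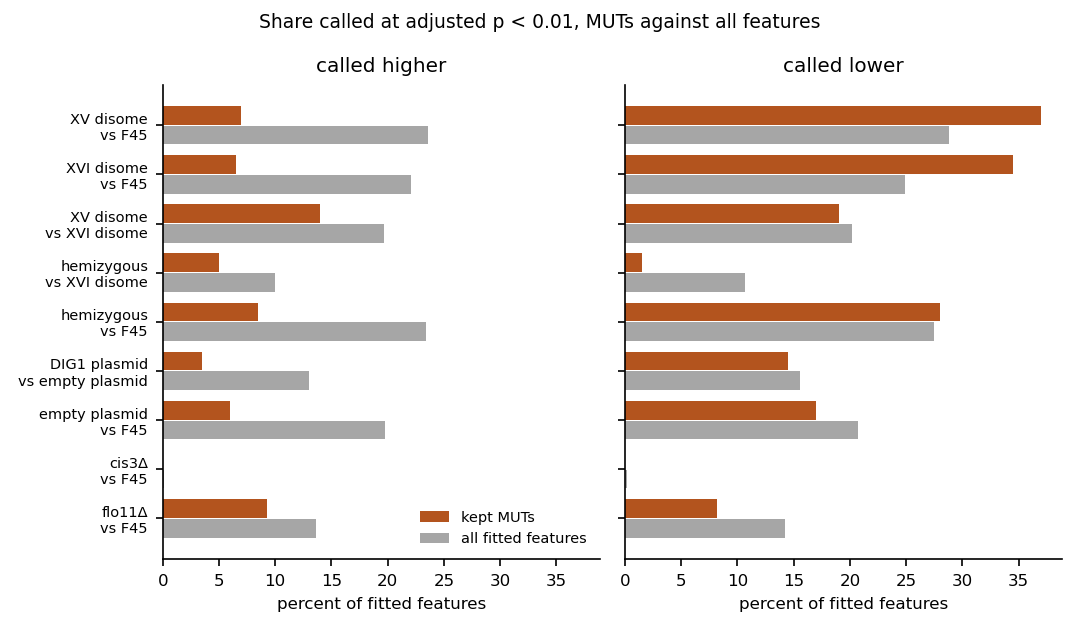
Share of tested MUTs called higher or lower in each comparison, in percent, with the share over all features beside it. In both disomes the share of MUTs called lower (37% and 34.5%) exceeds that called higher (7% and 6.5%), and the bars of cis3Δ stand at or near 0.

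MUT392.1 and MUT1143.1, which fell furthest in the disomes, lie beside genes of phosphate metabolism. MUT392.1 (chrIV:1022582-1023118, plus strand) runs away from PHM6, which starts 260 bases away on the other strand. MUT392.1 had 0 counts in the 4 chromosome XV disome libraries and 0.278, 0.0723, 0.464 and 0.149 CPM in the chromosome XVI disome, against 3.34, 3.54, 3.23 and 3.17 CPM in F45. With a floor of 3 counts over the 4 libraries together, the level in the chromosome XV disome was at least 43.6-fold lower than in F45. In the chromosome XVI disome MUT392.1 fell by 3.55 on the log2 scale (SE 0.304, adjusted p = 5.24e-10). PHM6, which averaged 84.8 ± 6.7 CPM in F45, fell too, with log2 fold changes of -4.52 and -2.75. Only 142 bases of MUT392.1 are free of other features on its strand, so its counts come from a short stretch.

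MUT1143.1 (chrXIII:23585-23825, plus strand) overlaps the first bases of TUB3, an alpha-tubulin gene on the other strand, and ends 211 bases from the 3′ end of PHO84, the high-affinity phosphate transporter gene. Its level was 0, 0.134, 0.229 and 0.178 CPM in the chromosome XV disome and 0.463, 0.434, 0.361 and 0.299 CPM in the chromosome XVI disome, against 5.95, 5.88, 6.01 and 7.02 CPM in F45. MUT1143.1 fell by 5.25 on the log2 scale in the chromosome XV disome (SE 0.308, adjusted p = 4.26e-14) and by 3.93 in the chromosome XVI disome (SE 0.238, adjusted p = 9.57e-14). PHO84 averaged 2829 ± 87 CPM in F45 and had log2 fold changes of -4.08 and -1.54. TUB3 moved little, with -0.22 (called) and -0.01 (not called). MUT357.1 (chrIV:458538-459250, plus strand), antisense to SOK1, was at 0.646, 0.134, 0.344 and 0.237 CPM in the chromosome XV disome and 0.0926, 0.217, 0.309 and 0.448 CPM in the chromosome XVI disome, against 2.32, 2.74, 2.27 and 2.62 CPM in F45. It fell by 2.98 (SE 0.355, adjusted p = 3.88e-08) and 3.23 (SE 0.341, adjusted p = 7.67e-09), and SOK1 on the other strand changed by -0.46 and -0.70. MUT1143.1 and MUT357.1 were also below 1 CPM in every library of both disomes, so their falls are likewise in part set by the rule. MUT1081.1, which lies between ORFs on chromosome XII, fell by 3.02 in the chromosome XV disome (SE 0.50, adjusted p = 7.69e-06).

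The MUTs that rose furthest, MUT84.3 and MUT86.1, lie past the 3′ end of AAC3 on the opposite strand, AAC3 being an ADP/ATP carrier gene of the mitochondrial inner membrane used when oxygen is low. MUT84.3 (chrII:417203-417779, minus strand) was at 3.88, 6.71, 5.39 and 5.38 CPM in the chromosome XV disome and 3.7, 5.57, 3.76 and 4.48 CPM in the chromosome XVI disome, against 0.290, 0.242, 0.440 and 0.551 CPM in F45. The libraries of the disomes overlapped each other. MUT84.3 rose by 3.81 on the log2 scale in the chromosome XV disome (SE 0.326, adjusted p = 8.32e-11) and by 3.51 in the chromosome XVI disome (SE 0.33, adjusted p = 8.62e-10). MUT86.1 (chrII:417891-418043, minus strand), its neighbour on the same strand, was at 2.26, 2.55, 2.52 and 2.37 CPM in the chromosome XV disome and 0.926, 2.1, 1.75 and 1.49 CPM in the chromosome XVI disome, against 0, 0.0805, 0.147 and 0 CPM in F45. With 3 counts in F45 in all, the ratio of MUT86.1 was 32.4 (95% exact counting interval 10.8 to 160.0) and 21.9 (7.25 to 108). AAC3, which averaged 11.3 CPM in F45, rose as well, by 2.15 and 1.76 on the log2 scale. The intervals cover counting error only. MUT84.3 and MUT86.1 were below 1 CPM in every F45 library of the first batch, so their rises over F45 are in part set by the rule.

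MUT1554.1 (chrXVI:591843-592115, plus strand) rose as an abundant transcript. It was at 32.6, 30.5, 40.0 and 36.2 CPM in the chromosome XV disome and 64.2, 73.9, 60.7 and 60.9 CPM in the chromosome XVI disome, against 10.6, 9.18, 11.4 and 6.47 CPM in F45. After the extra copy of chromosome XVI was taken into account MUT1554.1 was still higher, by 1.87 on the log2 scale in the chromosome XV disome (SE 0.123, adjusted p = 4.21e-13) and by 1.76 in the chromosome XVI disome (SE 0.117, adjusted p = 7.54e-13), and the 2 disomes did not differ beyond their spread (log2 fold change 0.11, SE 0.0984, adjusted p = 0.378). TIF6, a ribosome biogenesis gene that ends 216 bases away, had log2 fold changes of 0.17 and 0.00 and was not called. YPR015C, whose start lies upstream of MUT1554.1 on the opposite strand, went the other way. After the same copy adjustment YPR015C was lower in both disomes than in F45. In the chromosome XVI disome its adjusted log2 fold change was -0.37 (SE 0.0862, adjusted p = 0.000572), and this is not a fall of the unadjusted level. YPR015C was also lower in the chromosome XV disome than in the other disome (log2 fold change -0.82, SE 0.0999, adjusted p = 1.07e-07).

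**Figure D3:**
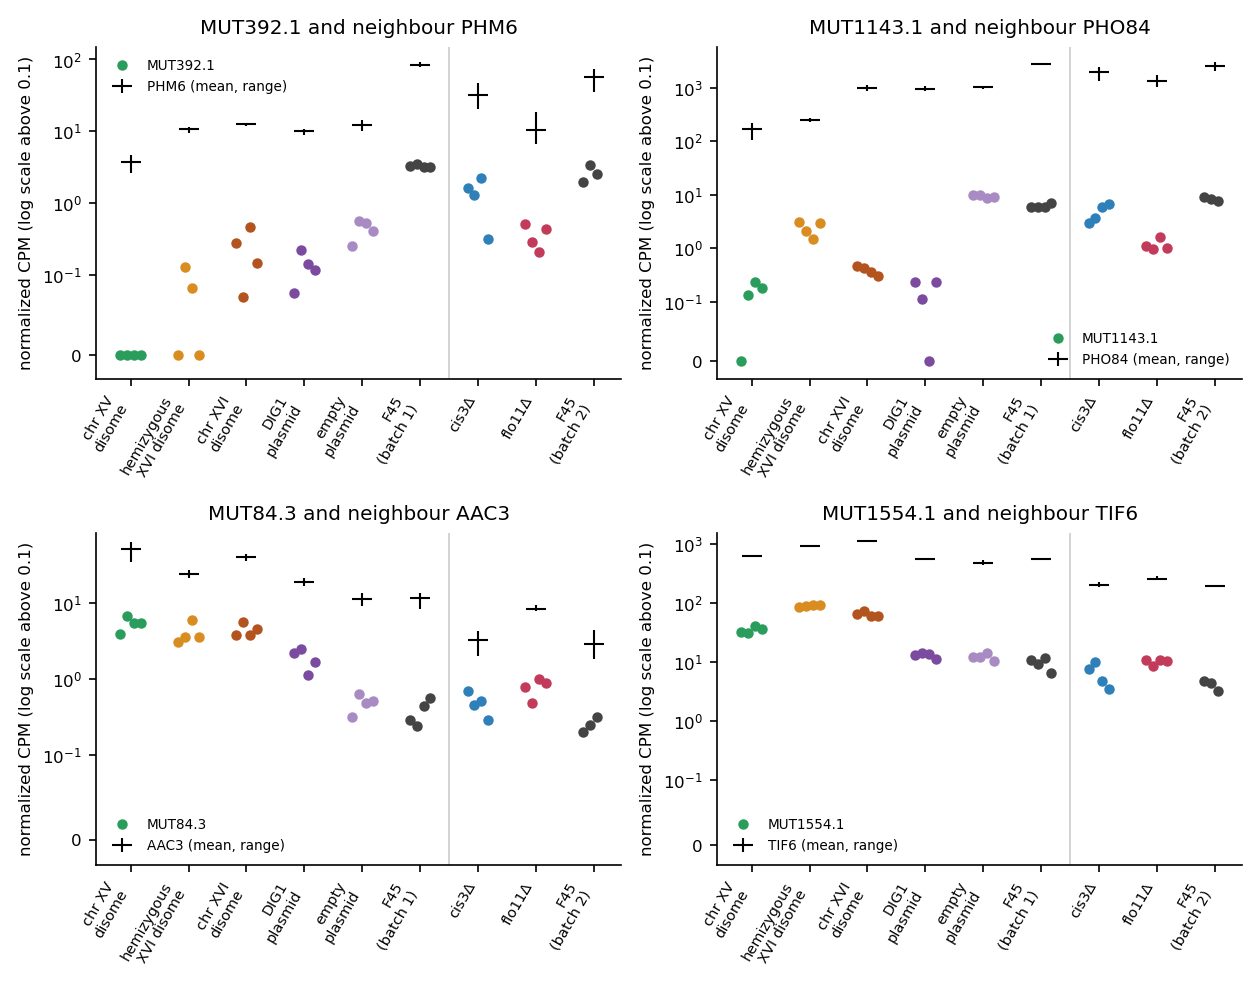
Levels of 4 MUTs, 1 point per library, and of 1 ORF beside each (bars, mean and range), in normalized CPM by group. The axis is logarithmic above 0.1 and linear below it, and the batches are divided by a line. MUT392.1 and MUT1143.1 lie lower in the disomes than in F45, MUT84.3 and MUT1554.1 lie higher.

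Between the disomes, 28 MUTs were higher and 38 lower in the chromosome XV disome than in the chromosome XVI disome, against 19.7% and 20.2% of all features. MUT541.2 (antisense to PAU5, a seripauperin gene) was at 8.4, 8.86, 4.7 and 3.61 CPM in the chromosome XV disome and 1.20, 0.651, 0.979 and 0.896 CPM in the chromosome XVI disome, so that it was higher by 2.67 on the log2 scale (SE 0.327, adjusted p = 1.22e-07). MUT60.1 and MUT60.2, short MUTs past the 3′ end of ACH1 on the opposite strand, where ACH1 encodes an enzyme of acetyl-CoA metabolism, were higher by 2.19 (SE 0.258) and 2.49 (SE 0.299). MUT111.1, in the subtelomeric part of chromosome II, was at 0.161, 0.403, 0.459 and 0.533 CPM in the chromosome XV disome and 3.33, 3.98, 2.99 and 2.84 CPM in the chromosome XVI disome (log2 fold change -2.91, SE 0.290, adjusted p = 3.07e-09). Relative to F45, MUT111.1 rose in the chromosome XVI disome, by 2.45 (SE 0.268, adjusted p = 1.39e-08), and was not called in the chromosome XV disome (-0.46, adjusted p = 0.375). MUT645.1, antisense to the pyruvate decarboxylase gene PDC6, was at 0.484, 0.403, 0.344 and 0.592 CPM in the chromosome XV disome and 2.87, 2.24, 3.35 and 1.49 CPM in the chromosome XVI disome (-2.43, SE 0.333, adjusted p = 7.47e-07), while PDC6 itself was higher in the chromosome XV disome by 1.72. MUT392.1 was at least 3.61-fold lower in the chromosome XV disome than in the chromosome XVI disome, a call that was lost without the third chromosome XVI disome library. MUT111.1 and MUT645.1 were below 1 CPM in every chromosome XV disome library, so their differences are in part set by the rule.

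The extra chromosome copies were visible in the MUTs they carry. Without the copy adjustment, the 26 MUTs on chromosome XV had a median fold of 1.42 in the chromosome XV disome relative to F45, against 0.682 for the 23 MUTs on chromosome XVI and 0.696 for the 151 on other chromosomes. In the chromosome XVI disome the MUTs on chromosome XVI had a median fold of 1.43 relative to F45 and the MUTs on chromosomes other than XV and XVI had 0.795. In the direct comparison of the disomes the median was 1.97 for MUTs on chromosome XV, 0.493 for MUTs on chromosome XVI and 0.888 for the others.

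The hemizygous strain differs from the chromosome XVI disome in its DIG1 copies. Here 10 MUTs were higher and 3 lower than in the chromosome XVI disome, against 10% and 10.7% of all features, so the share of MUTs called was no higher than the background. The number of calls depended on single libraries: 6, 8 and 8 MUTs were called without hemizygous library 1, 2 or 3, and 4 and 6 without library 3 or 4 of the chromosome XVI disome. MUT1143.1 rose, at 3.15, 2.08, 1.52 and 3.02 CPM in the hemizygous strain against 0.463, 0.434, 0.361 and 0.299 CPM in the chromosome XVI disome (log2 fold change 2.54, SE 0.297, adjusted p = 6.16e-07), although PHO84 fell by 1.97. MUT955.2 and MUT605.2, both between ORFs, rose by 1.13 (SE 0.318, adjusted p = 0.00732) and 0.86 (SE 0.248, adjusted p = 0.00862). The 3 MUTs that fell were MUT196.1 (-1.40, SE 0.409), MUT1527.2, antisense to the mRNA export gene MEX67 (-0.66, SE 0.139), and MUT791.1, antisense to the zinc transporter gene YKE4 (-0.51, SE 0.143). MUT1143.1 and MUT1527.2 passed the threshold with each library left out, whereas MUT955.2, MUT605.2, MUT196.1 and MUT791.1 lost the call without at least 1 library. MUT1143.1 was below 1 CPM in every chromosome XVI disome library, so its rise is in part set by the rule.

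Relative to F45, 17 MUTs were higher and 56 lower in the hemizygous strain, against 23.4% and 27.5% of all features, with a median log2 fold change of -0.31. MUT392.1 had 2 counts in the hemizygous strain and 134 in F45, a ratio of 0.0176 (95% exact counting interval 0.00211 to 0.0649). MUT1171.1 (chrXIII:700825-701313, plus strand), which overlaps the 5′ end of the protein kinase gene SKY1 on the other strand, was at 0.787, 1.43, 0.759 and 0.178 CPM in the hemizygous strain, against 9.72, 14.7, 13.0 and 11.8 CPM in F45. MUT1171.1 fell by 3.92 (SE 0.239, adjusted p = 1.28e-13), while SKY1 changed by -0.51. MUT357.1 fell by 4.00 (SE 0.431, adjusted p = 9.96e-09). MUT86.1 and MUT84.3 were higher here as well, MUT86.1 with a ratio of 18.9 (6.08 to 94.8) and MUT84.3 by 3.44 on the log2 scale (SE 0.347), and MUT1026.1, downstream of the polyamine transporter gene TPO1, rose by 2.59 (SE 0.333, adjusted p = 1.94e-07). These comparisons share the F45 libraries with those of the disomes and are not independent of them. The differences of MUT392.1, MUT86.1 and MUT84.3 are here too in part set by the rule. The summed MATa-specific genes, 5 in number, were at 238 to 278 CPM in the hemizygous strain and 561 to 630 CPM in F45, and a list of sporulation genes at 98 to 108 CPM in the hemizygous strain and 134 to 172 CPM in F45, and their part in the MUT changes was not tested.

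DIG1 overexpression (plasmid pAB340) was compared with the empty plasmid (pRS41K) in the same euploid strain. Of 200 MUTs, 7 were higher and 29 lower, against 13% and 15.6% of all features, with a median log2 fold change of -0.30 (-0.05 over all features). MUT1143.1 was at 0.235, 0.113, 0 and 0.235 CPM with DIG1 overexpression, against 9.71, 10.1, 8.88 and 8.88 CPM with the empty plasmid. It fell by 5.78 on the log2 scale (SE 0.272, adjusted p = 1.62e-15), whereas its neighbour PHO84 was not called (-0.12) and TUB3, whose start it overlaps, fell by 0.60. MUT576.1 (chrVII:414415-414679, minus strand), antisense to RIM8, was at 0.0783, 0, 0.282 and 0.117 CPM with DIG1 overexpression and 2.67, 3.58, 3.30 and 3.08 CPM with the empty plasmid. It fell by 4.73 (SE 0.493, adjusted p = 1.54e-08) and RIM8 fell by 0.46. MUT1143.1 and MUT576.1 were below 1 CPM in every DIG1 overexpression library, so their falls are in part set by the rule. MUT1317.2 (chrXV:387958-388262, minus strand), antisense to DFG16, was at 20.7, 23.9, 21.3 and 27.5 CPM with DIG1 overexpression and 10.3, 10.7, 13.3 and 12.9 CPM with the empty plasmid. It rose by 0.98 (SE 0.124, adjusted p = 3.58e-07), with DFG16 not called (0.18). RIM8 and DFG16 both act in the Rim101 pathway of the response to alkaline pH. MUT84.3 and MUT86.1 rose with DIG1 overexpression, by 2.04 (SE 0.321) and 2.1 (SE 0.489), and MUT511.2, the most abundant MUT, was at 30.5, 34.2, 40.4 and 39.6 CPM with DIG1 overexpression and 86.5, 82.6, 80.1 and 95.5 CPM with the empty plasmid, and fell by 1.27 on the log2 scale (SE 0.112, adjusted p = 7.49e-10). Beside these changes the summed MATa-specific genes were at 315 to 447 CPM with DIG1 overexpression and 751 to 823 CPM with the empty plasmid, and their part in the MUT changes was not tested.

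The strain with the empty plasmid was itself compared with F45. Here 12 MUTs were higher and 34 lower, against 19.8% and 20.7% of all features, with a median log2 fold change of -0.17. MUT392.1 was at 0.251, 0.565, 0.534 and 0.411 CPM with the empty plasmid, against 3.34, 3.54, 3.23 and 3.17 CPM in F45, and fell by 2.98 (SE 0.245, adjusted p = 5.53e-10). PHM6 fell by 2.79 and PHO84 by 1.46, but MUT1143.1 rose by 0.60 (SE 0.130, adjusted p = 0.00033). MUT557.1 and the antisense MUTs MUT1491.2 (opposite NCR1, a sterol transport gene) and MUT816.1 (opposite SIP4, a transcription factor gene of gluconeogenesis) rose by 1.51 (SE 0.233), 1.31 (SE 0.279) and 1.23 (SE 0.162). MUT357.1 and MUT55.1 fell by 2.42 (SE 0.267) and 1.58 (SE 0.273). MUT392.1 and MUT357.1 were below 1 CPM in every library with the empty plasmid, so their falls are in part set by the rule. The summed MATa-specific genes were at 751 to 823 CPM with the empty plasmid and 561 to 630 CPM in F45, and their part in the MUT changes was not tested. In DIG1 overexpression MUT557.1 was lower than with the empty plasmid by 2.13 (SE 0.262, adjusted p = 2.49e-07), at 0.783, 1.35, 0.706 and 0.704 CPM against 4.11, 5.78, 2.86 and 3.08 CPM.

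In flo11Δ, 17 of 183 MUTs were higher and 15 lower than in F45 of the second batch, against 13.6% and 14.2% of 7493 features, and without the third F45 library 14 were higher and 14 lower. By position, 14 of 66 antisense MUTs were higher and 4 lower, and of 92 MUTs between ORFs 3 were higher and 8 lower, with median log2 fold changes of 0.10 and -0.30. Without the third F45 library 13 antisense MUTs were higher and 4 lower, and 1 MUT between ORFs was higher and 8 lower, with medians of 0.21 and -0.29. The difference between these positions was not tested. The fit took the libraries of the 2 flo11Δ strains as 1 group, with no term for the strain. MUT1416.1 (chrXV:510042-510530, plus strand), antisense to the nuclear pore gene NUP1, was at 19.4, 17.2, 25 and 22.5 CPM in flo11Δ, against 6.90, 6.39 and 7.65 CPM in F45. It rose by 1.60 (SE 0.250, adjusted p = 0.000231), while NUP1 was not called (0.17). MUT298.1, antisense to SWR1, which encodes the ATPase that places histone H2A.Z, was at 8.65, 7.53, 6.5 and 8.80 CPM in flo11Δ and 2.00, 2.27 and 2.52 CPM in F45 (1.79, SE 0.238, adjusted p = 7.51e-05), and SWR1 had a log2 fold change of 0.01. MUT1489.1, antisense to ECM23, was at 4.76, 6.0, 4.17 and 4.08 CPM in flo11Δ and 1.10, 0.742 and 1.30 CPM in F45 (2.17, SE 0.306, adjusted p = 0.000108). MUT1527.2 rose by 1.35 (SE 0.235) and MUT1317.2 by 1.21 (SE 0.159), and the abundant MUT64.1 by 0.92 (SE 0.157). Without the third F45 library these 6 MUTs were still called, with log2 fold changes of 1.67 for MUT1416.1, 1.88 for MUT298.1, 2.36 for MUT1489.1, 1.48 for MUT1527.2, 1.24 for MUT1317.2 and 0.91 for MUT64.1. The summed MATa-specific genes were at 435 to 500 CPM in flo11Δ and 623 to 736 CPM in F45, and their part in the MUT changes was not tested.

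**Figure D4:**
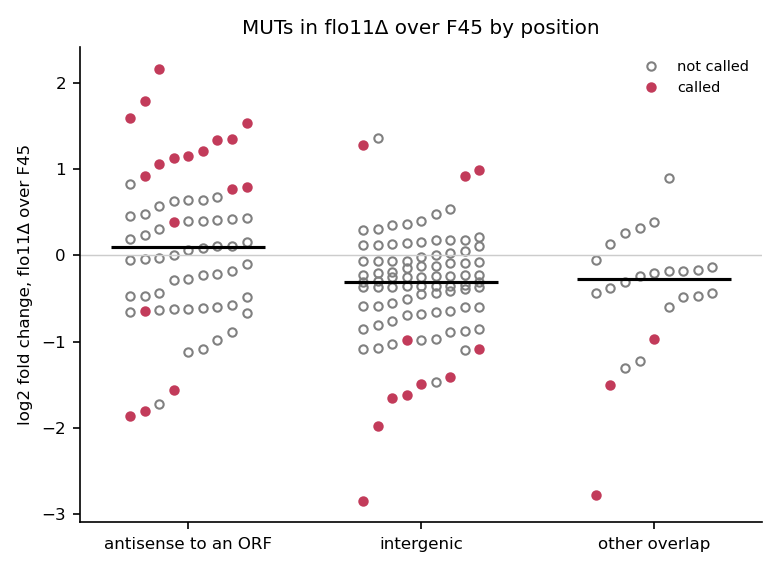
Log2 fold change of each tested MUT in flo11Δ relative to F45 of the second batch, by position, with called MUTs marked. Antisense MUTs have 14 points called higher and 4 lower, and MUTs between ORFs have 3 called higher and 8 lower.

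Falls in flo11Δ were led by the MUTs beside phosphate genes. MUT392.1 was at 0.519, 0.286, 0.212 and 0.440 CPM in flo11Δ, against 1.95, 3.46 and 2.56 CPM in F45 (-2.85, SE 0.537, adjusted p = 0.000877), and PHM6 changed by -2.48. MUT1143.1 was at 1.12, 0.953, 1.63 and 1.01 CPM in flo11Δ, against 8.95, 8.20 and 7.56 CPM in F45 (-2.79, SE 0.277, adjusted p = 1.01e-05), and PHO84 changed by -0.88. MUT925.2, which lies 1449 bases upstream of the flocculin gene FLO10 on the other strand, was at 0.346, 0.667, 0.495 and 0.503 CPM in flo11Δ and 2.00, 2.19 and 1.80 CPM in F45 (-1.98, SE 0.263, adjusted p = 7.25e-05), while FLO10 changed by -2.70. Without the third F45 library MUT392.1, MUT1143.1 and MUT925.2 were still called, with log2 fold changes of -2.88, -2.84 and -2.05. MUT392.1 and MUT925.2 were below 1 CPM in every flo11Δ library, so their falls are in part set by the rule.

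In cis3Δ no MUT of 183 was called higher or lower than in F45 by edgeR, against 0.147% and 0.214% of all features, and without the third F45 library the count was again 0. At an unadjusted p below 0.05 there were 41 MUTs, and the likelihood ratio test of edgeR called 3 and DESeq2 4. The nearest to the threshold was MUT511.2, at 56.1, 50.7, 59.0 and 67.4 CPM in cis3Δ against 91.7, 74.1 and 84.5 CPM in F45 (-0.51, SE 0.0898, adjusted p = 0.0129). The 2 cis3Δ strains differed from each other in several MUTs. MUT1416.1 was at 12.5 and 15.9 CPM in the libraries of the first strain and at 7.25 and 6.85 CPM in those of the second, MUT64.1 at 43.6 and 38.1 CPM and at 29.8 and 26.4 CPM, and MUT1527.2 at 6.99 and 6.89 CPM and at 3.55 and 3.75 CPM. F45 had 6.90, 6.39 and 7.65 CPM of MUT1416.1, 16.2, 23.5 and 19.7 CPM of MUT64.1 and 3.65, 3.05 and 4.32 CPM of MUT1527.2. With 2 libraries a strain this difference was not tested.

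The log2 fold changes of MUTs were set beside those of neighbouring ORFs. An ORF starting within 1000 bases upstream of the MUT on the opposite strand was present for 95 of the 236 MUTs, and over 70 such pairs of the first batch the log2 fold changes of MUT and ORF had a Pearson correlation of 0.62 (Spearman 0.41) in the chromosome XV disome relative to F45, or 0.43 without MUT392.1. In the chromosome XVI disome it was 0.60 (0.54 without MUT392.1), with DIG1 overexpression 0.43 and in flo11Δ 0.51 (71 pairs), or 0.46 without the third F45 library. Of 22 divergent pairs in which both were called in the chromosome XV disome, 17 moved in the same direction, and of 15 in the chromosome XVI disome 13 did. With DIG1 overexpression 4 of 4 and in flo11Δ 6 of 6 such pairs moved in the same direction (5 of 5 without that library). Between the disomes 5 of 10 such pairs did. For MUTs opposite to an ORF the correlation over 80 pairs was 0.23 in the chromosome XV disome, -0.05 in the chromosome XVI disome and 0.15 with DIG1 overexpression, and over 64 pairs it was -0.06 in flo11Δ (0.00 without the third F45 library). For ORFs that end within 1000 bases downstream of the MUT on the opposite strand, over 72 pairs of the first batch, it was 0.30 in both disomes and 0.18 with DIG1 overexpression, and over 60 pairs 0.34 in flo11Δ (0.19 without that library). For ORFs on the strand of the MUT it was 0.02 and 0.04 in the chromosome XV and XVI disomes where the ORF lay upstream, and 0.21 and 0.20 where it lay downstream (46 pairs each). Where MUT and opposite ORF were both called in the chromosome XV disome (25 pairs), 17 were both lower, 2 both higher and 6 opposite. In the chromosome XVI disome 11 of 16 such pairs moved in the same direction, with DIG1 overexpression 3 of 8 did and in flo11Δ 0 of 3. Of pairs with an ORF that ends downstream and both called, 13 of 23 moved in the same direction in the chromosome XV disome. In the chromosome XVI disome 12 of 15 of these did, with DIG1 overexpression 5 of 5 and in flo11Δ 5 of 5 (2 of 2 without the third F45 library). These are descriptions across pairs that share libraries and, in part, an ORF, and a low MUT adds counting noise to its fold change.

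**Figure D5:**
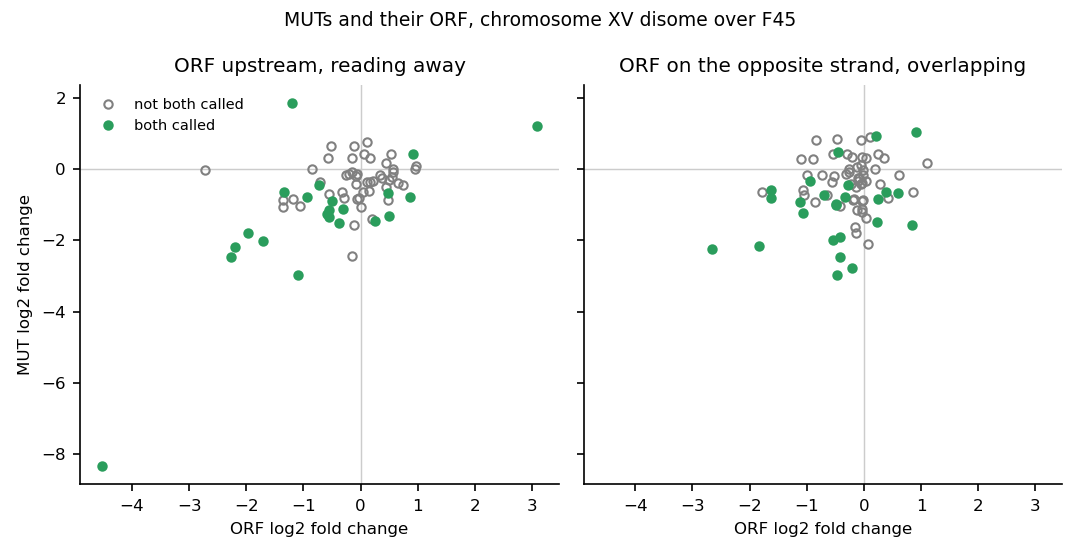
Log2 fold change of MUTs (vertical axis) against that of the ORF that starts upstream and runs the other way (left) or of the ORF on the opposite strand (right), chromosome XV disome over F45, 1 point per pair, filled where both were called. In the left panel 17 of 22 filled points have the same sign on both axes; the point of MUT392.1 at -8.33 is a fitted value for a group at 0 counts, depends on the prior count and is no bound.

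The genes of RNA decay and of meiosis were taken from lists of known members. Of 21 genes of nuclear RNA decay, 10 were higher and 1 lower in the chromosome XV disome relative to F45, and 7 higher and 1 lower in the chromosome XVI disome, with median log2 fold changes of 0.19 and 0.15 (-0.05 and -0.02 over all features). Over all features 23.6% were higher and 28.8% lower in the chromosome XV disome and 22.1% and 24.9% in the chromosome XVI disome, and the gene lists here and of meiosis stand beside these shares. PAP2, the poly(A) polymerase of TRAMP, rose by 0.90 in the chromosome XV disome, LRP1 and MPP6, cofactors of the nuclear exosome, by 0.92 and 0.77 and NRD1 by 0.57, and SEN1 fell by 0.22. RRP6 was called in neither disome (log2 fold changes -0.04 and 0.15) and rose by 0.20 with DIG1 overexpression, where 4 genes of the list were higher and 1 lower. In flo11Δ 1 was higher and 4 lower. Over all features 13% were higher and 15.6% lower with DIG1 overexpression, and 13.6% and 14.2% in flo11Δ. Of 16 genes of cytoplasmic RNA decay, 7 were higher and none lower in the chromosome XV disome, and 5 and none in the chromosome XVI disome.

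Of 8 inducers of meiosis, 2 were higher and 3 lower in the chromosome XV disome and 1 higher and 5 lower in the chromosome XVI disome. IME1, the master inducer, averaged 34.6 ± 8.2 CPM in the chromosome XV disome and 12.4 ± 3.7 CPM in the chromosome XVI disome, against 55.7 ± 13 CPM in F45 (SD, n = 4 each), with log2 fold changes of -0.72 and -2.17. RME1, a repressor of IME1, fell as well, by 2.82 and 2.91. NDT80 averaged 3.48 ± 0.82 CPM and 2.60 ± 0.76 CPM in the disomes and 3.86 ± 0.60 CPM in F45 and was called in no comparison. Of 19 tested early and middle sporulation genes, 4 were higher and 7 lower in the chromosome XV disome and 2 and 3 in the chromosome XVI disome, and SPS100, a spore wall gene, fell by 3.26 and 6.65. The summed level of a list of sporulation genes was 115 to 144 CPM in the chromosome XV disome and 81.4 to 92.6 CPM in the chromosome XVI disome, against 134 to 172 CPM in F45. The summed MATa-specific genes were at 168 to 189 CPM and 210 to 273 CPM, against 561 to 630 CPM. All of these strains are MATa, so the MATa sum does not count MATa cells. None of the genes of these marker lists was at 0 in all libraries, and their part in the MUT changes was not tested.

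Some abundant MUTs were called in few comparisons or none. MUT203.1 (chrIII:56833-57329, plus strand), beside SRO9, was at 6.09, 53.2, 36.4 and 8.68 CPM in the F45 libraries of the first batch and 1.65, 2.60 and 2.34 CPM in those of the second, and at 22.8, 30.5, 78.2 and 12.6 CPM with DIG1 overexpression. It was called in no comparison. MUT507.2, beside the transcription factor gene GAT1, was at 18.7, 19.5, 15.5 and 13.8 CPM in F45 libraries of batch 1 and 13.8, 18.1 and 17.1 CPM in those of batch 2, and was called only with the empty plasmid relative to F45 (-0.36, SE 0.105, adjusted p = 0.0058). MUT1548.1, antisense to AIM45, was at 12.1, 9.55, 11 and 12.3 CPM with the empty plasmid, against 20.4, 18.4, 16 and 17.2 CPM in F45 (-0.66, SE 0.103, adjusted p = 6.15e-06). The batches were run on different sequencers and were tested separately.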

How the data were processed

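Colony RNA was sequenced from poly(A)-selected, stranded libraries. The deposited tables hold counts per feature: the authors aligned reads with Bowtie2 2.1.0 to genome R64 and counted them by strand with featureCounts 1.4.0, with no filter on mapping quality, so reads shared with near-identical copies may be misplaced. Table columns were matched to groups by name, and library numbers follow column order.

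Each batch was fitted with edgeR 4.0.16 (R 4.3.3; glmQLFit and glmQLFTest, prior count 0.125), 1 coefficient per group. Features with at least 1 CPM in at least 3 libraries were fitted, 7928 in batch 1 and 7493 in batch 2. TMM factors and library sizes were computed on ORFs of the nuclear genome, leaving out those on the 2 disomic chromosomes in batch 1, and an offset allowed for the 2 copies of a disomic chromosome. Printed levels are normalized CPM without that offset, and log2 fold changes include it. P-values were adjusted over all fitted features by Benjamini-Hochberg and called below 0.01. They measure the spread between these libraries, which the sources do not place in separate cultures beyond the pooled colonies. Single values were compared by exact permutation tests. No pair of libraries in a group was a duplicate.

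MUTs were placed against 6575 ORFs by their tabled coordinates. Named MUTs were, for each comparison, the 3 with the largest rise and the 3 with the largest fall among called MUTs whose libraries did not overlap, and the 8 with the highest mean CPM in F45 of batch 1. No kept MUT was antisense to an ORF that the study names. The members and gene lists were chosen with earlier results of these data known. DESeq2 1.42.0, other scalings and filters, a replicate block and each library left out were alternatives, and the procedure was tested on simulated data.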

Additional observations from a re-analysis of the deposited data

Results flagged for a closer look

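A library was set apart from its group when its gap to the nearest of the other 3 libraries was large relative to the range of the group (Dixon's test at the 95% level), and chance sets apart about 1 in 20 groups. Of 99 groups tested, 6 had such a library. The summed level of the MUTs was 637 CPM in 1 chromosome XVI disome library, against 681 to 689 CPM in the other 3. MUT1143.1 was at 7.02 CPM in 1 F45 library of the first batch (5.88 to 6.01 CPM in the others). In the chromosome XVI disome MUT196.1 was at 2.54 CPM in 1 library (0.868 to 1.03 CPM in the others) and MUT791.1 at 13.3 CPM (11.5 to 11.6 CPM in the others). MUT557.1 was at 1.35 CPM in 1 DIG1 overexpression library (0.704 to 0.783 CPM in the others), and MUT357.1 at 0.679 CPM in 1 library of the empty plasmid (0.377 to 0.411 CPM in the others).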

How the results depend on the processing

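For 48 results on single MUTs, 823 values under other settings were computed, of which 788 kept the direction and the side of the threshold, 35 kept the direction without passing it, and none changed sign. A filter at a mean of 1 CPM gave a value for 31 of the 48, and leaving out the copy number adjustment for 30. Apart from MUT392.1 between the disomes, those 35 were all in the hemizygous strain relative to the chromosome XVI disome. For that comparison, with 13 MUTs called, leaving out 1 library gave 4 to 13. In cis3Δ, where edgeR's quasi-likelihood test called 0, its likelihood ratio test called 3, DESeq2 4 and the fit with a replicate block 1, and leaving out 1 library gave 0 to 3. Leaving out 1 library gave 65 to 84 in the chromosome XV disome (88 called), 71 to 80 in the chromosome XVI disome (82), 57 to 67 between the disomes (66), 57 to 68 in the hemizygous strain relative to F45 (73), 28 to 36 with DIG1 overexpression (36), 34 to 45 with the empty plasmid (46) and 25 to 35 in flo11Δ (32). Without the third F45 library in the rule as well, 27 of 174 MUTs were called in flo11Δ and 0 in cis3Δ.

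Without the copy number adjustment the counts were 89 in the chromosome XV disome, 80 in that of chromosome XVI, 79 between the disomes and 79 in the hemizygous strain relative to F45; 25.8% of the calls in the chromosome XV disome were then higher, against 15.9% with it, and 34.2% against 23.3% in the hemizygous strain. No scaling moved the median of the MUTs by more than 0.0856 on the log2 scale. The library tags in the headers, used for a replicate block, were not taken to pair the libraries, since not every correlation between deviations of same-tag libraries was above 0.1: the median was 0.159 in the first batch (33 of 60 above 0.1) and 0.0296 in the second (3 of 10), against -0.0549 (56 of 180) and -0.0969 (11 of 30) between libraries of other tags. With the replicate block 85 MUTs were called in the chromosome XV disome, 82 in the chromosome XVI disome, 64 between the disomes, 11 in the hemizygous strain relative to the chromosome XVI disome, 72 relative to F45, 37 with DIG1 overexpression, 47 with the empty plasmid and 30 in flo11Δ.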
